A study of Mus musculus with 25 samples.

Results

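A set of 10 effector genes of T lymphocytes is described here across the maturation of mouse thymic invariant natural killer T (iNKT) cells: the cytokine genes Ifng, Il4, Il13, Il17a, Il2, Tnf and Csf2 and the chemokine genes Xcl1, Ccl4 and Ccl5. They were taken as the transcript clusters of the array whose probe annotation names one of these 10 symbols, with the brightest cluster for a symbol that has several, and they are 10 of 22206 clusters tested. All cells came from thymus of C57BL/6 mice and were sorted as T cell receptor beta and CD1d-PBS57 tetramer positive, CD24 negative cells. The first pool, S1_S2, was NK1.1 negative, with or without CD44 (stages 1 and 2), and the second, S3, carried both CD44 and NK1.1 (stage 3). The S1_S2 groups held 6 wild-type (WT) arrays, 4 arrays of Mst1 single knockouts (Mst1KO) and 2 of Mst1/2 double knockouts (dKOMst). The S3 groups held 7 WT, 5 Mst1KO and 1 dKOMst array. The labels give neither the alleles, a Cre driver nor the ages of the mice, and they do not say in what ratio stages 1 and 2 were combined. Whether 2 arrays of a group stem from different mice is not stated either. A p-value here therefore reflects array-to-array spread alone, which could be technical.

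iNKT cells recognise lipids held by CD1d, and unlike most T cells they already transcribe cytokine genes in the thymus, so that stimulated cells secrete within hours. Their subsets are named after the cytokines they make: NKT2 cells make interleukin 4, NKT17 cells interleukin 17, and NKT1 cells, which make up most of the NK1.1-positive stage 3, interferon gamma. Mst1 and Mst2, encoded by Stk4 and Stk3, are kinases of the Hippo pathway. The values below are steady-state mRNA levels in sorted cells that were not stated to have been stimulated, and they say nothing of secreted protein.

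Levels are log2 values, so a difference of 1 is a 2-fold change, and a level is compared only with the same gene on other arrays. Within a group, pairs of arrays correlated across genes with r between 0.981 and 0.9927. Sample titles carry running numbers with a gap: a first set of 16 arrays held every Mst1KO array and a second set of 9 every dKOMst array, with WT arrays in both. The labels call neither set a batch, and each difference below was fitted with the set as a term. Stk4 averaged 10.46 ± 0.19 (SD, n = 6) in WT and 9.31 ± 0.07 (n = 4) in Mst1KO S1_S2, and 10.28 ± 0.42 (n = 7) and 9.74 ± 0.28 (n = 5) in S3, so that a signal remained in the knockouts. Among the double knockouts, dKOMst S1_S2 replicate 1 read 10.27, inside the WT S1_S2 values (lowest 10.18, highest 10.74). Replicate 2, at 9.63, lay below them, and both replicates exceeded the highest Mst1KO S1_S2 array (9.4). The dKOMst S3 array read 10.08, a level inside both the WT S3 (9.69 to 10.73) and the Mst1KO S3 (9.43 to 10.13) values. The sources used here do not say whether the Stk4 probes lie in the deleted part. All 8 measured markers of iNKT and T cells read above the negative control median on every array. Cd24a, used to gate out immature cells, read below it on every array. The 8 include Klrb1c, the NK1.1 gene, with group means of 8.33 to 9.32 in the NK1.1-negative S1_S2 pools. A level above that median therefore does not by itself show that a marker is on the cell surface.

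The promoters of 5 of the genes are shown because the results turn on them: Ifng and Xcl1 were higher in S3, Il4 and Il13 were lower in S3, and Tnf differed between genotypes. Each line is the 250 bases before the RefSeq transcription start (build GRCm38.p6), 5′ to 3′ in the direction of the gene. They are chr10:118440796-118441045, plus strand (Ifng), chr1:164935523-164935772, minus strand (Xcl1), chr11:53618666-53618915, minus strand (Il4), chr11:53634703-53634952, minus strand (Il13), and chr17:35202008-35202257, minus strand (Tnf). Capitals mark the letters searched for on both strands, with overlapping matches joined. T-box factors such as the product of Tbx21 bind GGTGTGA, and a shorter form searched for was AGGTGT. The letters AGATAA are bound by GATA factors, and a second form was TGATAA. AP-1 binds TGAGTCA. NFAT binds GGAAAA, which reads as TTTTCC when it lies on the other strand. The TATA box was searched for as TATAAA.
Ifng: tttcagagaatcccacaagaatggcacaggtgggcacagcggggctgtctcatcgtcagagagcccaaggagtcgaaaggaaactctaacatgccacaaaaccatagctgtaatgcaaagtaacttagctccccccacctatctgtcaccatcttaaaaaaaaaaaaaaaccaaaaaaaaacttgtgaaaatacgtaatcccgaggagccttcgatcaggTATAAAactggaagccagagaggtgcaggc
Xcl1: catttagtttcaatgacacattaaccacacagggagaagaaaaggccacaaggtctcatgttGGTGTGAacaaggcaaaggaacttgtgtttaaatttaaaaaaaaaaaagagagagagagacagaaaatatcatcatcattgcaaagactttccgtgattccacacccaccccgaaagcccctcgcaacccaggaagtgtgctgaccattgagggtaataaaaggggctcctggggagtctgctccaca
Il4: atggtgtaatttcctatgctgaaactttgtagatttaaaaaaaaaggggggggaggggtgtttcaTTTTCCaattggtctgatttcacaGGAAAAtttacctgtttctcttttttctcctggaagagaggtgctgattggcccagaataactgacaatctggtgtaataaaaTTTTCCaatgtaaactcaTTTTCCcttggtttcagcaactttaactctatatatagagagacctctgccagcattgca
Il13: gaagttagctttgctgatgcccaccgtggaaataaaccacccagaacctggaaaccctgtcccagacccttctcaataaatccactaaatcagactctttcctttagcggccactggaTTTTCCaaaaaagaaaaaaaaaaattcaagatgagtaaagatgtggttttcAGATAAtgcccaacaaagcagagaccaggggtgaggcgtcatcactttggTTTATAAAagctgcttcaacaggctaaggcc
Tnf: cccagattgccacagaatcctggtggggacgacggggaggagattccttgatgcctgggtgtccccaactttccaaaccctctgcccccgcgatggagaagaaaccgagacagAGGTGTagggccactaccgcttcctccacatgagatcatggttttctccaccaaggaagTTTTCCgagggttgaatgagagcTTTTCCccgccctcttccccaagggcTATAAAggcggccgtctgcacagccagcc

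The Xcl1 window held GGTGTGA, a T-box motif, at base -188, counted from the start. That motif lies in 4.0% of 32851 RefSeq promoter windows of 300 bases. The Tnf window held AGGTGT (13.7% of all windows) at base -137, and the Ifng window held neither T-box motif. GGAAAA, present in 23.4% of windows, occurred 4 times in the Il4 window, at bases -185, -161, -78 and -60, 2 times in that of Tnf and 1 time in that of Il13. The Il13 window also held AGATAA (11.2% of windows) at base -81, and the Il4 window held TGATAA (9.1% of windows) at base 14 after the start, outside the stretch shown. TATAAA stood at base -30 of Ifng and in the windows of 5 of the 8 genes with a sequence, against 13.6% of all windows, and TGAGTCA (5.2% of windows) in none of the 8. The windows of Ccl4 and Ccl5 were not analysed here. These matches describe letters and show no binding.

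The genes differed in how far they rose above the background of the arrays, which carry 5222 negative control items with a median of 6.19 to 6.59 per array. Il4, Il13, Il17a, Tnf and Xcl1 read above that median on all 25 arrays. Ifng did so on 20, Ccl5 on 19, Ccl4 on 15 and Csf2 on 14. Il2, the T cell growth factor gene, was between 5.26 and 5.99 and above the median on 0 of 25 arrays, so no direction is given for it. The control items spread widely, and against their 95th percentile (9.34 to 9.82) Il4 was above on 20 arrays, Xcl1 on 13, Ifng on 11, Il13 on 1 and the other members on 0.

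**Figure D1:**
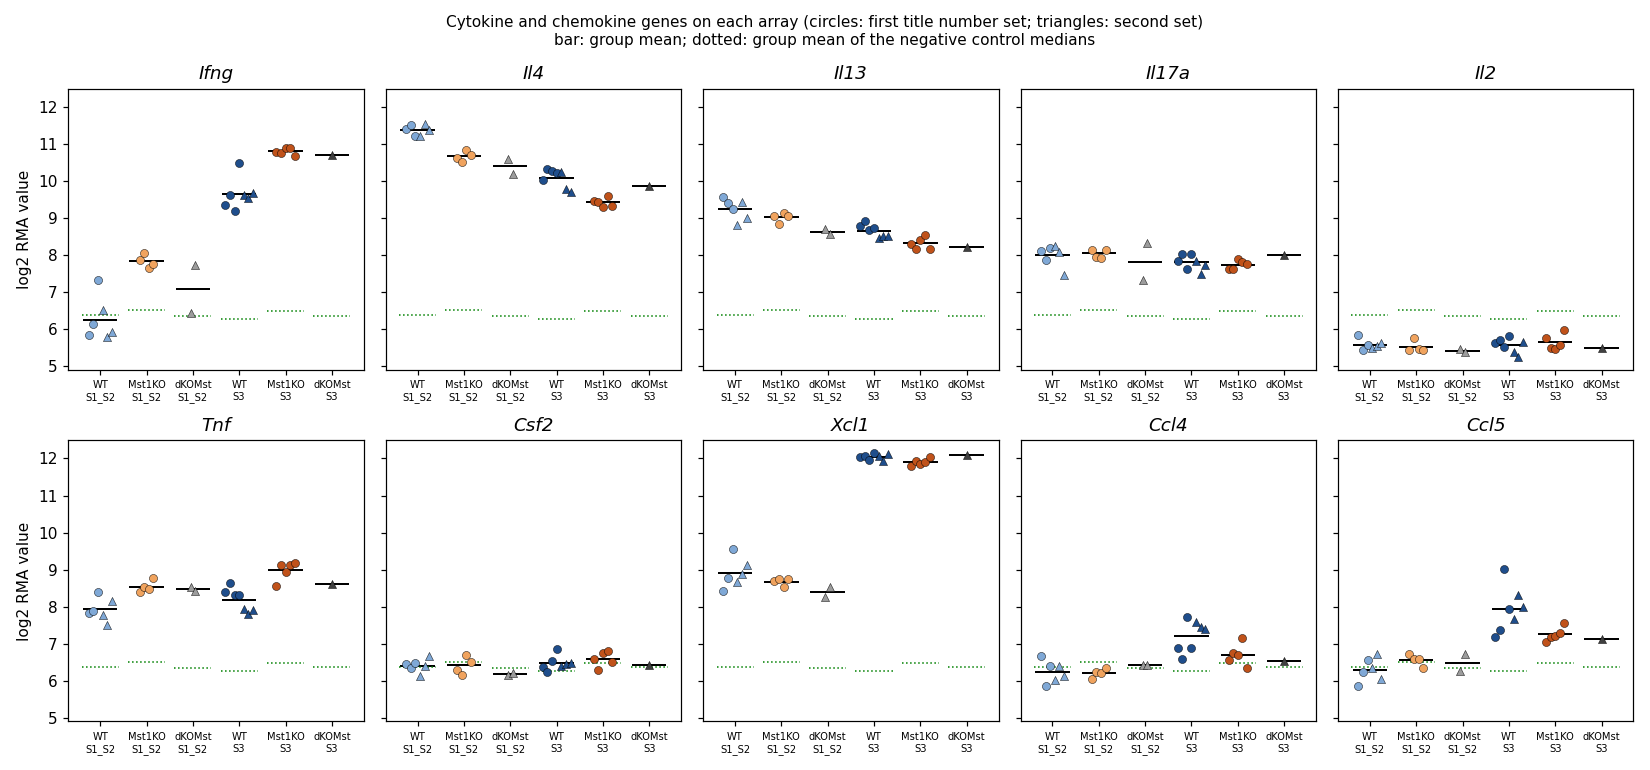
Log2 level of each of the 10 genes (vertical axis, same scale in all panels) on each of 25 arrays by genotype and stage; circles are arrays of the first title number set, triangles the second, black bars group means and dotted green lines the group mean of the negative control medians. Ifng and Xcl1 stand far higher in S3 than in S1_S2, Il4 is highest in WT S1_S2, and Il2 lies under the control line on every array.

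The step from S1_S2 to S3 was read first in WT cells. Between these groups Ifng, Xcl1, Ccl5 and Ccl4 rose, Il4 and Il13 fell, and Il17a, Tnf and Csf2 did not pass the test. Thus 6 of 10 members were called at an adjusted p under 0.05, 4 higher and 2 lower, where 16.9% of all clusters were called (8.18% higher and 8.75% lower). The median difference was 0.14 over the members and 0.01 over all clusters. A larger share of producing cells and more mRNA per cell cannot be told apart in sorted bulk RNA.

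Ifng, the gene of the macrophage-activating cytokine interferon gamma, ran from 5.78 to 7.33 with a median of 6.05 in 6 WT S1_S2 arrays. In the 7 WT S3 arrays it ran from 9.18 to 10.48 with a median of 9.62. The groups were far apart, and the S1_S2 values straddled the control median, with 2 of 6 arrays above it. The difference was 3.37 ± 0.23 (SE; limma adjusted p = 8.6e-11), a size that is inexact because most S1_S2 arrays read no higher than the controls, and it was 3.22 within the first title number set and 3.54 within the second.

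Xcl1 encodes lymphotactin, the attractant of cross-presenting dendritic cells that carry XCR1. It ran from 8.44 to 9.56 (median 8.83) in WT S1_S2 and from 11.92 to 12.14 (median 12.06) in WT S3. Its spread narrowed from an SD of 0.39 to 0.08, and no array of one stage came near the other. The difference was 3.13 ± 0.12 (limma adjusted p = 7.8e-15), or 8.77-fold, with 3.12 within the first set and 3.14 within the second.

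The other two chemokine genes, whose products attract leukocytes, started from the control level: each was above the control median on 2 of 6 WT S1_S2 arrays and on 7 of 7 WT S3 arrays, so the sizes below are inexact. Ccl5 (RANTES) ran from 5.87 to 6.74 with a median of 6.30 in WT S1_S2 and from 7.20 to 9.02 with a median of 7.94 in WT S3, and the groups did not overlap. Its difference was 1.64 ± 0.21 (limma adjusted p = 2.5e-06), with 1.65 and 1.62 within the 2 sets. WT S3 replicate 3 was the highest of that group at 9.02, and without it the difference was 1.45 ± 0.15. Ccl4 (MIP-1 beta) ran from 5.86 to 6.68 (median 6.28) and from 6.59 to 7.73 (median 7.41), so the groups overlapped slightly. It rose by 0.98 ± 0.16 (limma adjusted p = 1e-04). Within the first set alone the rise was 0.71 (limma adjusted p = 0.078), and within the second it was 1.28 (adjusted p = 0.00014).

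Il4, which drives type 2 responses, went the other way. It ran from 11.22 to 11.53 (median 11.37) in WT S1_S2 and from 9.69 to 10.32 (median 10.20) in WT S3. All S1_S2 arrays were above all S3 arrays, yet the S3 arrays remained above the 95th percentile of the controls in 7 of 7 cases. The fall was -1.31 ± 0.10 (limma adjusted p = 6.9e-10), which is 2.48-fold, with -1.16 within the first set and -1.48 within the second. Il13, its neighbour and relative that acts on epithelia and mucus, ran from 8.80 to 9.56 (median 9.31) and from 8.47 to 8.91 (median 8.67). These groups overlapped, and the difference was -0.60 ± 0.09 (limma adjusted p = 2.6e-05), with -0.62 and -0.58 within the 2 sets.

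Il17a, the neutrophil-recruiting cytokine of NKT17 cells, ran from 7.47 to 8.25 in WT S1_S2 and from 7.49 to 8.04 in WT S3. The ranges nearly coincided, and the difference of -0.21 ± 0.13 did not pass (limma adjusted p = 0.35; 95% interval -0.49 to 0.07). Tnf, the inflammatory cytokine gene, ran from 7.51 to 8.41 and from 7.80 to 8.64, with a difference of 0.23 ± 0.12 (adjusted p = 0.23). Csf2, which encodes GM-CSF, stayed within 6.14 to 6.86 over all arrays and had a difference of 0.06 ± 0.11 (adjusted p = 0.79).

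Of the 10 genes, 4 had WT groups that did not overlap: Ifng, Xcl1 and Ccl5 above and Il4 below. Over all clusters 6.68% had groups apart in this way. The same step moved the summed linear level of 9 natural killer markers from 615 to 2101 in WT S1_S2 to 11592 to 13464 in WT S3, which the NK1.1 gate bears on. Ncr1, a defining marker of natural killer cells, was below the control median on every S1_S2 array and above it on 4 of 7 WT S3 arrays. The part of such cells in the rise of Ifng, Xcl1, Ccl4 and Ccl5 was not tested. WT S1_S2 replicate 3 had the highest marker sum of its group (2101, against 615 to 1206 in the others), the highest Ifng (7.33), the highest Xcl1 (9.56) and the highest Tnf (8.41). Without it the differences were 3.60 ± 0.20 for Ifng and 3.28 ± 0.09 for Xcl1.

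The loss of Mst1 was then examined before stage 3. In Mst1KO S1_S2 cells Ifng was higher and Il4 lower than in WT, and the other 8 members did not pass. That is 2 of 10 members, where 0.522% of all clusters were called (0.329% higher and 0.194% lower). These are also the only 2 members whose groups did not overlap, against 2.58% of all clusters.

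Ifng read 7.88, 8.05, 7.64 and 7.77 in the 4 Mst1KO S1_S2 arrays, against 5.78 to 7.33 (median 6.05) in the 6 WT arrays. Every knockout array was above every WT array and above its control median. The rise was 1.48 ± 0.28 (limma adjusted p = 0.012), measured from the same WT level near the controls and so inexact in size. It was 1.39 ± 0.30 within the first set (limma adjusted p = 0.063), and the adjusted p rose to 0.061 without WT S1_S2 replicate 1, to 0.057 without Mst1KO S1_S2 replicate 2 and to 0.15 with the arrays that carry Y-linked signal alone. Without WT S1_S2 replicate 3, the array with the high natural killer markers, the rise was 1.79 ± 0.25 (limma adjusted p = 0.00061).

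Il4 read 10.61, 10.52, 10.83 and 10.70 in the Mst1KO arrays, against 11.22 to 11.53 (median 11.37) in WT. The lowest WT array was thus above the highest knockout array. The fall was -0.78 ± 0.13 (limma adjusted p = 0.0025), or 1.72-fold, and within the first set it was -0.70 (adjusted p = 0.009). Il13 read 9.06, 8.84, 9.12 and 9.04, inside the WT range of 8.80 to 9.56 over both sets. The WT arrays of the first set, which holds every Mst1KO array, ran from 9.23 to 9.56, above all 4 knockout arrays. The Il13 difference of -0.37 ± 0.11 did not pass (limma adjusted p = 0.2), nor did that of -0.38 within the first set (adjusted p = 0.28).

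Tnf read 8.39, 8.54, 8.48 and 8.77 in Mst1KO S1_S2, against 7.51 to 8.41 (median 7.87) in WT. Only the lowest knockout array lay inside the WT range, but the difference of 0.41 ± 0.15 did not pass (limma adjusted p = 0.35; 95% interval 0.10 to 0.73). Xcl1 read 8.70, 8.75, 8.54 and 8.75, inside the WT range, with a difference of -0.24 ± 0.15 (adjusted p = 0.75). Il17a had a difference of -0.04 ± 0.17 (95% interval -0.39 to 0.31), Ccl5 one of 0.33 ± 0.26 (-0.22 to 0.88) and Csf2 one of -0.02 ± 0.13 (-0.30 to 0.27). Ccl4 was above the control median on 0 of 4 knockout arrays and on 2 of 6 WT arrays, so its level there was no higher than the controls on most arrays.

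At stage 3 the same pair of genes differed between genotypes, joined by Tnf and Il13. In Mst1KO S3 cells Ifng and Tnf were higher and Il4 and Il13 lower than in WT S3. These 4 of 10 calls stand beside 6.37% of all clusters (3.73% higher and 2.64% lower).

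Ifng read 10.78, 10.76, 10.88, 10.89 and 10.66 in Mst1KO S3, against 9.18 to 10.48 (median 9.62) in WT S3. The knockout arrays lay above all WT arrays and within 0.23 of each other. The rise was 1.07 ± 0.26 (limma adjusted p = 0.016), or 2.09-fold. Il4 read 9.45, 9.44, 9.30, 9.59 and 9.31, against 9.69 to 10.32 (median 10.20). Again no arrays overlapped, and none of the 5 knockout arrays exceeded the 95th percentile of its controls. The fall was -0.72 ± 0.11 (limma adjusted p = 0.00054), or 1.65-fold. Over all clusters 2.54% had groups apart at this stage, as Ifng and Il4 did.

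Il13 read 8.31, 8.16, 8.41, 8.53 and 8.17, against 8.47 to 8.91 (median 8.67) in WT S3. Only 1 knockout array reached into the WT range, and the fall was -0.47 ± 0.10 (limma adjusted p = 0.0096). That overlap was with WT arrays of the second set. In the first set, which holds every Mst1KO array, WT S3 ran from 8.67 to 8.91, above all 5 knockout arrays. Tnf read 8.56, 9.13, 8.94, 9.12 and 9.19, against 7.80 to 8.64 (median 8.32). One knockout array lay inside the WT range and 4 above it, and the rise was 0.63 ± 0.14 (limma adjusted p = 0.0082). Within the first set alone the 4 differences were 1.13 for Ifng, -0.78 for Il4, -0.46 for Il13 and 0.57 for Tnf, each called (adjusted p of 0.027, 0.00039, 0.022 and 0.039). Without the set term Il13 lost its call (-0.34, adjusted p = 0.1). With the arrays that carry Y-linked signal alone, Ifng (1.01, adjusted p = 0.1) and Tnf (0.60, adjusted p = 0.061) lost theirs.

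The chemokine genes did not pass at S3. Ccl5 read 7.05, 7.19, 7.23, 7.30 and 7.56 in Mst1KO S3: 2 of 5 values lay below the WT range of 7.20 to 9.02 and 3 inside it. Its difference of -0.61 ± 0.24 had an adjusted p of 0.12 and turned on single WT arrays: it was -0.78 without WT S3 replicate 1 (limma adjusted p = 0.048) and -0.33 without replicate 3 (0.29). Ccl4 read 6.56, 6.75, 6.71, 7.17 and 6.36, against 6.59 to 7.73, a difference of -0.43 ± 0.19 (adjusted p = 0.16). Xcl1 read 11.79, 11.92, 11.84, 11.90 and 12.03, against 11.92 to 12.14, a difference of -0.16 ± 0.14 (95% interval -0.44 to 0.13). Il17a differed by -0.13 ± 0.15 (95% interval -0.45 to 0.19) and Csf2 by 0.09 ± 0.12 (-0.16 to 0.34).

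Cells of other kinds were checked beside these genotype results, in which 0.522% (S1_S2) and 6.37% (S3) of all clusters were called. The summed level of the natural killer markers was 946 to 1118 in Mst1KO S1_S2, inside the WT range, and 13147 to 14248 in Mst1KO S3, against 11592 to 13464 in WT S3. Within that list Tyrobp (0.74 ± 0.11, limma adjusted p = 0.00049) and Eomes (0.67 ± 0.14, adjusted p = 0.0076) were higher and Ncr1 (-0.99 ± 0.29, adjusted p = 0.044) lower in Mst1KO S3, where Ncr1 was above the control median on 0 of 5 arrays. Mast cells and basophils also make interleukins 4 and 13: their 9 markers summed to 775 to 1220 over all S1_S2 arrays and to 802 to 1204 over all S3 arrays, and Cpa3, Fcer1a and Mcpt8 did not pass in either genotype comparison. Of 6 markers of immature double-positive thymocytes 2 were higher in Mst1KO S3, Cd8b1 (0.73 ± 0.18, adjusted p = 0.018) and Cd24a (adjusted p = 0.042), which read below the controls in both groups, and the list summed to 1129 to 1420 against 729 to 1049 in WT S3. Gamma-delta T cells, which also transcribe Ifng and Il17a, had 2 markers on the array. Their sum was 1133 to 1336 in Mst1KO S1_S2 against 876 to 1068 in WT, with Cd163l1 higher (0.77 ± 0.14, limma adjusted p = 0.0059) and Sox13 lower (-0.67 ± 0.14, 0.027), and Cd163l1 was also higher at S3 (0.82 ± 0.12, 0.00032). The 3 regulatory T cell markers summed to 362 to 434 in Mst1KO S3 against 476 to 650, with 1 of 3 lower (Ikzf4, -0.45 ± 0.10, limma adjusted p = 0.0075), and 1 of 10 myeloid markers was lower there (S100a9, -0.58 ± 0.17, 0.041). In the lists for B cells, thymic epithelium and erythroid cells (6, 5 and 1 measured markers) 0 markers were called in either genotype comparison. The part of any such cells in the genotype differences was not tested.

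**Figure D2:**
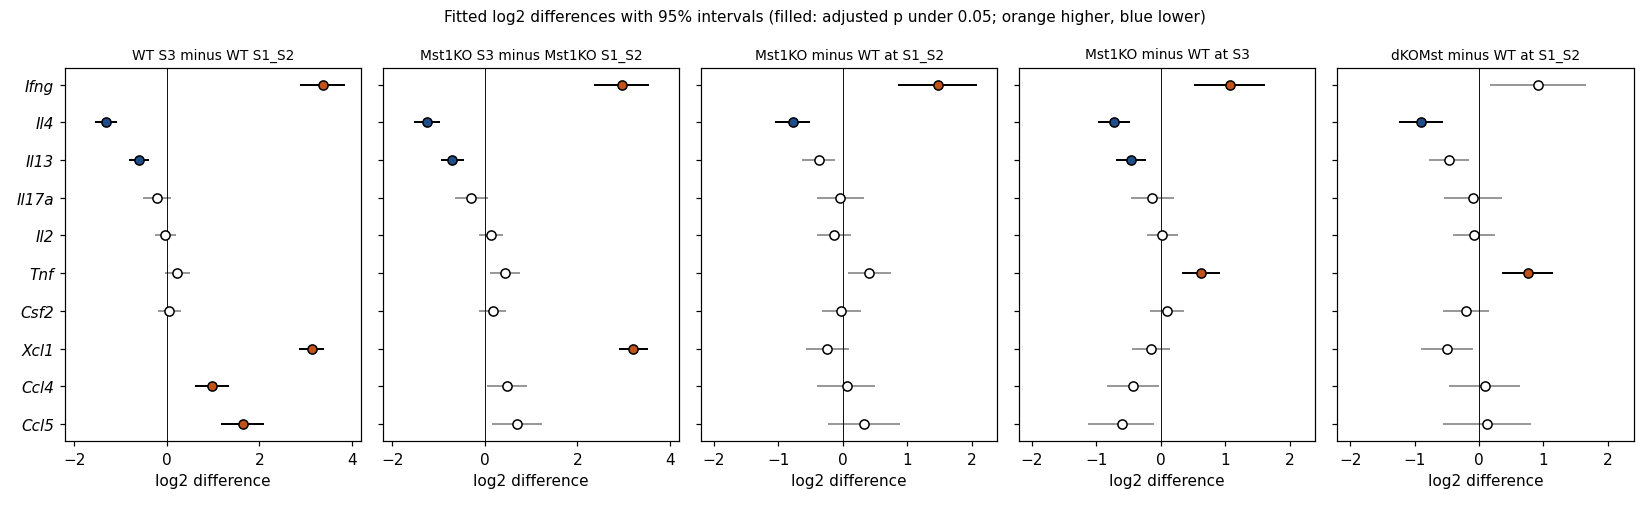
Fitted log2 difference of each gene (horizontal axis; points, with 95% intervals as lines) in 5 comparisons; filled points have an adjusted p under 0.05, orange higher and blue lower, and open points do not. Both stage panels share the rise of Ifng and Xcl1 and the fall of Il4 and Il13, and the knockout panels have Ifng or Tnf to the right and Il4 to the left of 0.

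In Mst1KO cells the step from S1_S2 to S3 was called for Ifng (2.96 ± 0.27, limma adjusted p = 4.8e-08), Xcl1 (3.21 ± 0.14, 4.3e-13), Il4 (-1.25 ± 0.12, 9.6e-08) and Il13 (-0.70 ± 0.11, 9.4e-05). These are 4 of 10 members, 2 in each direction, where 10.2% of all clusters were called (5.58% higher and 4.62% lower). Ifng, Xcl1 and Ccl5 had knockout groups apart with S3 above, and Il4, Il13 and Il17a with S3 below, which is 6 of 10 members against 14.1% of all clusters. Ccl5 (0.70 ± 0.25, adjusted p = 0.082), Ccl4 (at least 0.20, adjusted p = 0.13) and Tnf (0.44 ± 0.14, 0.052) did not pass in the knockout. For Ccl4 only a bound is given, since 0 of 4 knockout S1_S2 arrays were above the control median. Fitting only these 2 groups added all 3 of them, with adjusted p of 0.0014 for Ccl5, 0.042 for Ccl4 and 0.049 for Tnf.

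Whether the knockout effect itself differed between stages was tested as the difference of the 2 effects. None of the 10 members passed, where 0.158% of all clusters did. Only Ccl5 had an unadjusted p below 0.05, with a difference of effects of -0.94 ± 0.33 (limma adjusted p = 0.35; 95% interval -1.62 to -0.26). For Il4 the difference of effects was 0.06 with a 95% interval of -0.27 to 0.39, and for Ifng it was -0.41 with one of -1.15 to 0.33. The Tnf and Il13 calls at S3 were likewise not shown to be stage specific, with differences of effects of 0.21 ± 0.19 and -0.10 ± 0.14.

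Ifng and Il4 together placed the groups in order. Ifng means ran from 6.26 ± 0.59 (SD) in WT S1_S2 through 7.08 ± 0.91 in dKOMst S1_S2, 7.84 ± 0.17 in Mst1KO S1_S2 and 9.64 ± 0.41 in WT S3 to 10.79 ± 0.09 in Mst1KO S3, with the dKOMst S3 array at 10.70. The dKOMst S1_S2 arrays overlapped both of their neighbours in that order, and the dKOMst S3 array lay within the Mst1KO S3 values. Il4 means fell from 11.37 ± 0.13 in WT S1_S2 through 10.66 ± 0.13 in Mst1KO S1_S2, 10.39 ± 0.30 in dKOMst S1_S2 and 10.07 ± 0.25 in WT S3 to 9.41 ± 0.12 in Mst1KO S3, with the dKOMst S3 array at 9.87. Among these, dKOMst S1_S2 overlapped Mst1KO S1_S2 and WT S3, and the dKOMst S3 array lay within the WT S3 range. The genotype and stage comparisons share WT arrays and are not independent of each other.

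**Figure D3:**
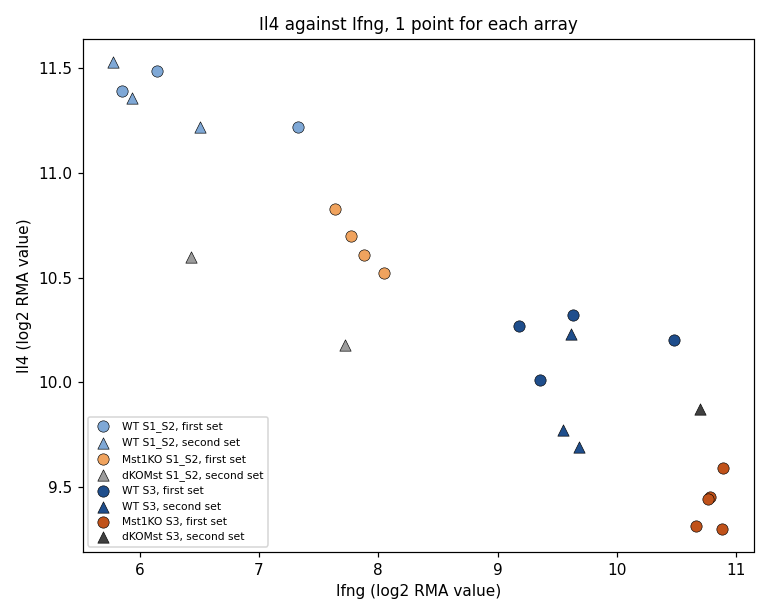
Log2 level of Il4 (vertical axis) against that of Ifng (horizontal axis), 1 point for each of 25 arrays; colours are the genotype and stage groups, circles the first title number set and triangles the second. WT S1_S2 arrays lie at the upper left and Mst1KO S3 arrays at the lower right, with Mst1KO S1_S2 and WT S3 arrays between them.

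The double knockouts rest on 3 arrays, all in the second set. By its Stk4 level, neither dKOMst S1_S2 replicate 1 nor the dKOMst S3 array stood apart from WT. In the 2 dKOMst S1_S2 arrays Il4 read 10.60 and 10.18, under all 6 WT arrays (11.22 to 11.53), and Tnf read 8.55 and 8.44, just above all of them (7.51 to 8.41). Il4 was called lower (-0.90 ± 0.15, limma adjusted p = 0.0026) and Tnf higher (0.76 ± 0.18, adjusted p = 0.048). These are 2 of 10 members, where 0.923% of all clusters were called (0.554% higher and 0.369% lower). The call of Tnf was lost in 14 of 19 alternatives, among them the second set alone (0.68, adjusted p = 0.17), and that of Il4 without dKOMst S1_S2 replicate 2 (-0.69, adjusted p = 0.12) and within the second set alone (-0.98, adjusted p = 0.079).

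Ifng read 6.43 and 7.72 in those arrays, 1 inside and 1 above the WT range. Its difference of 0.91 ± 0.35 did not pass (limma adjusted p = 0.29; 95% interval 0.18 to 1.64). Il13 read 8.70 and 8.56, below the WT range of 8.80 to 9.56, and did not pass (-0.46 ± 0.14, adjusted p = 0.14). Xcl1 read 8.27 and 8.54, a difference of -0.49 ± 0.19 (adjusted p = 0.28). With Il4, Il13 and Tnf, 3 of 10 members had groups that did not overlap, against 14.3% of all clusters at these group sizes. Il17a differed more between the 2 arrays (7.33 and 8.32) than between the groups (-0.09 ± 0.21), and Csf2, Ccl4 and Ccl5 lay near the controls. Of 9 natural killer markers 3 were called higher in these arrays (Fcer1g, 2.06 ± 0.24, limma adjusted p = 2.7e-05; Itgam, 0.93 ± 0.18, 0.008; Eomes, 0.91 ± 0.20, 0.02), with a list median of 0.91 against 0.01 over all clusters. The list summed to 1892 and 2001, against 2101 in WT S1_S2 replicate 3 and 615 to 1206 in the other WT arrays. The part of natural killer cells in the differences of this group was not tested.

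Set against Mst1KO S1_S2, the double knockout had 0 of 10 members called, where 0.171% of all clusters were. No member had an unadjusted limma p under 0.05. The 95% intervals reach from -0.50 to 0.27 for Il4, from -1.44 to 0.31 for Ifng and from -0.12 to 0.81 for Tnf. Genotype and title number set coincide in this comparison, and the fit rests on the WT arrays to separate them.

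The single dKOMst S3 array has no replicate, so only differences are given, against the 3 WT S3 arrays of its set. Ifng read 10.70 against 9.55 to 9.68, a difference of 1.08, and was the only member past 1 log2 unit, where 0.919% of all clusters were past it. Ccl4 read 6.55 against 7.41 to 7.60 (-0.94), Ccl5 7.15 against 7.67 to 8.32 (-0.85) and Tnf 8.63 against 7.80 to 7.95 (0.74). Il17a read 8.01 (7.49 to 7.85), Il13 8.23 (8.47 to 8.52), Il4 9.87 (9.69 to 10.23) and Xcl1 12.09 (11.92 to 12.12). Over all 7 WT S3 arrays Tnf ran from 7.80 to 8.64 and Il17a from 7.49 to 8.04, ranges that hold the values of the dKOMst array.

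Lists of genes around the cytokines were then counted, since the cells that make a cytokine are also read through its relatives, receptors and regulators. Each count below stands beside the share of all clusters called. That share was 16.9% in the WT step, 0.522% in Mst1KO at S1_S2, 6.37% at S3 and 0.923% in dKOMst at S1_S2. A few calls in a short list can lie near that share. Of 19 other T cell cytokine and death ligand genes, 4 rose and 3 fell in the WT step. The largest changes were in Csf1, the macrophage growth factor gene (-3.25 ± 0.22), and Fasl, the ligand of the death receptor Fas (3.08 ± 0.14). Il21, a helper cytokine for B cells, was at -1.39 ± 0.20. The median of the list was 0.00, against 0.01 over all clusters. In the Mst1KO comparisons 1 was lower at each stage: Csf1 at S1_S2 (-1.96 ± 0.27) and Tnfsf10, encoding the death ligand TRAIL, at S3 (-0.66). Csf1 was also the only call of the list in dKOMst S1_S2 (-2.36 ± 0.33, limma adjusted p = 0.00034). It fell in the Mst1KO step as well (-1.89 ± 0.26). The 15 other chemokine genes had 0 calls in any of the 7 fitted comparisons. Their smallest adjusted p was 0.13 (Cxcl10, 0.60 ± 0.17, Mst1KO S1_S2) in the genotype comparisons and 0.063 (Cxcl16, 0.28 ± 0.10) in the WT step.

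Of 16 receptor genes for these cytokines and chemokines, 5 rose and 3 fell in the WT step, with a median of 0.00. Both chains of the interferon gamma receptor were called, in opposite directions: Ifngr1 rose by 1.68 ± 0.09 and Ifngr2 fell by 1.77 on the log2 scale. Il4ra, the interleukin 4 receptor chain, rose by 1.63 ± 0.11 where Il4 fell. Neither Mst1KO comparison called a receptor, and dKOMst S1_S2 had Il4ra higher (0.84 ± 0.17, limma adjusted p = 0.017).

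Among 27 transcription factors that act on cytokine genes, 14 rose and 4 fell in the WT step, a median of 0.24 against 0.01 over all clusters. Stat4, which carries the interleukin 12 signal to Ifng, rose by 3.33 ± 0.20 and Tbx21, the T-box factor of NKT1 cells, by 1.91 ± 0.14, while Irf4, a factor of type 2 and type 17 cells, fell by 1.95. The list's medians were 0.08 in Mst1KO at S1_S2 and 0.06 at S3, against -0.01 and -0.05 over all clusters. In Mst1KO S1_S2, where Ifng was higher, Tbx21 differed by 0.02 ± 0.17 (adjusted p = 0.99) and Stat4 by 0.71 ± 0.25 (adjusted p = 0.33). Mean Stat4 levels of 5.87 in WT S1_S2 and 6.46 in Mst1KO S1_S2 were below the mean control medians of 6.39 and 6.51. The sizes of its differences, the WT rise among them, are therefore inexact. The 3 factors called in Mst1KO S1_S2 were the AP-1 subunits Jun (1.49 ± 0.22) and Fos (1.40 ± 0.20) and the basic leucine zipper factor Nfil3 (0.94 ± 0.17). At S3 Jun (1.14 ± 0.20), Fos (0.79 ± 0.18) and Eomes (0.67 ± 0.14), a T-box factor, were higher, and Bhlhe40, which in T cells favours Ifng over Il10, was lower (-0.53 ± 0.14). In dKOMst S1_S2 the only call was Eomes (0.91 ± 0.20), and Jun (1.05 ± 0.27) had an adjusted p of 0.064 and Fos (0.10 ± 0.25) one of 0.95.

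Cytokine mRNAs carry elements bound by proteins that degrade them or hold them back. Of 16 genes for such proteins, 4 rose and 3 fell in the WT step, with Zfp36l2 at 1.08 ± 0.16, Tia1 at -0.89 ± 0.11 and Zc3h12a (Regnase-1) at 0.54 ± 0.10 (list median 0.02). Zfp36, which encodes tristetraprolin and targets Tnf mRNA, was higher in Mst1KO at S1_S2 (0.59 ± 0.11, limma adjusted p = 0.0088) and at S3 (0.63 ± 0.10, adjusted p = 5e-04), the stage at which Tnf was also called higher. Tia1 (0.70 ± 0.13) and Ptbp1 (0.29 ± 0.08) were higher at S3 as well, and the list's median there was 0.17 against -0.05 over all clusters. In dKOMst S1_S2 none of the 16 was called, with Zfp36 at 0.04 ± 0.13.

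Of 17 genes that cytokine signals switch on, 9 rose and 1 fell in the WT step (median 0.40). Socs2 and Socs1, feedback inhibitors of cytokine receptors, rose by 1.48 ± 0.19 and 1.18 ± 0.11, and Iigp1, an interferon-induced GTPase, fell by 0.98 on the log2 scale. In Mst1KO the kinase gene Pim1 was higher at S1_S2 (0.72 ± 0.11) and at S3 (0.60 ± 0.10), and Nfkbia, the inhibitor of NF-kappa B, at S3 (0.31 ± 0.09). That list holds 7 interferon-induced GTPase genes (Gbp2, Gbp3, Gbp4, Gbp7, Igtp, Irgm1 and Iigp1). Of these, Gbp3 (0.83 ± 0.12), Gbp4 (0.39 ± 0.08) and Gbp7 (0.54 ± 0.11) rose in the WT step. Iigp1 fell there, and Gbp2, Igtp and Irgm1 did not pass. None of the 7 passed in either Mst1KO comparison, where 0.522% (S1_S2) and 6.37% (S3) of all clusters were called. In dKOMst S1_S2 Pim1 was higher (0.65 ± 0.14) and Iigp1 lower (-1.34 ± 0.30).

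**Figure D4:**
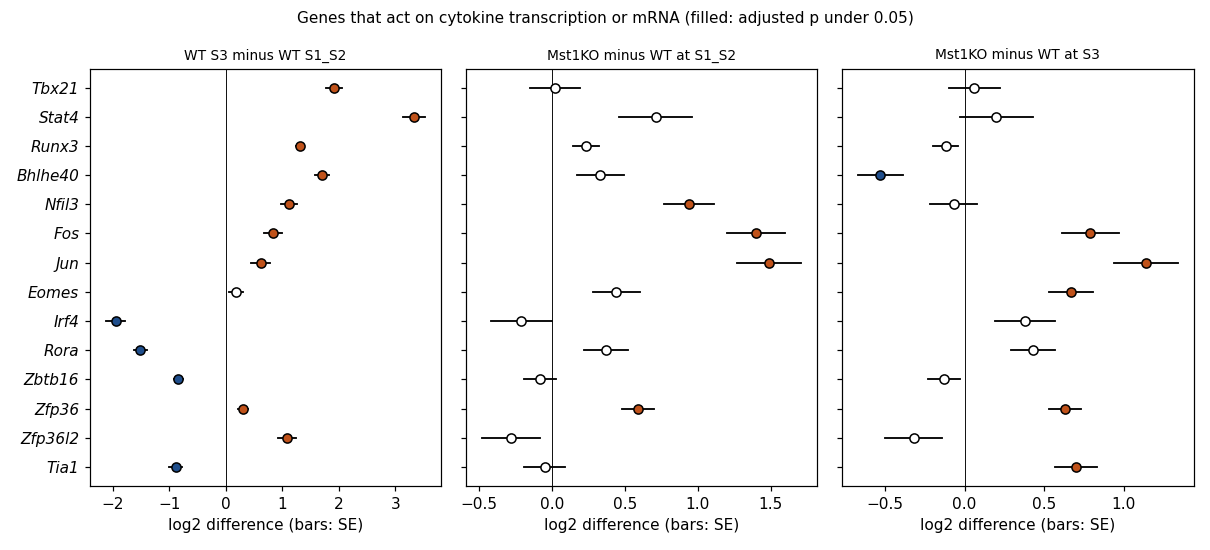
Fitted log2 difference (horizontal axis; points, with SE as lines) of 14 genes for transcription factors and mRNA-binding proteins, in the WT step from S1_S2 to S3 and in Mst1KO against WT at each stage; filled points have an adjusted p under 0.05. The genes plotted were chosen from both lists after their values were seen; Tbx21 and Stat4 are far to the right in the WT step only, and Jun, Fos and Zfp36 are to the right in all 3 panels.

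For the 7 members whose group means span at least 1 log2 unit, the genes with the most similar pattern were sought by the root mean square difference of the 6 group means, each gene centred on its own mean. For Ifng the closest were the lysophosphatidylserine receptor gene Gpr174 (0.34), Tsc22d3 (0.54) and Stat4 (0.55). For Il4 they were Khdrbs3 (0.19), Cdkn2a (0.20) and Tbc1d19 (0.21), and for Il13 Sh3bp5 (0.06), Rgs10 (0.08) and Dlk1 (0.09). For Xcl1 they were Il12rb2, a chain of the interleukin 12 receptor (0.17), Klrb1c, the NK1.1 gene of the sort (0.21), and Fgl2 (0.22). For Tnf they were Rtn4 (0.08), Rtn4rl1 (0.10) and Kansl1l (0.11), for Ccl4 Ids (0.08), Hs3st3a1 (0.08) and Rell1 (0.09), and for Ccl5 Selenon (0.11), Nedd4 (0.12) and Baiap3 (0.12). A gene with a small span finds close matches more easily, and the measure rests on 6 means. It also takes no account of level, and some matches lay near or below the control medians. Among them were Cdkn2a (group means 4.80 to 6.45), Hs3st3a1 (5.71 to 6.62) and, outside WT S1_S2, Khdrbs3 (5.25 to 6.33).

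Neighbouring genes were read because cytokine genes lie in clusters. Around Il4 and Il13, Kif3a (-1.22 ± 0.22, limma adjusted p = 0.00021) and Septin8 (-0.80 ± 0.16, 0.00087) also fell in the WT step, while the type 2 cytokine gene Il5 (-0.08 ± 0.09) and Rad50 (-0.27 ± 0.12) did not pass, and Irf1, which encodes an interferon-induced transcription factor, rose (0.38 ± 0.08, 0.00067). None of these 5 passed in either Mst1KO comparison with WT. Beside Ifng lie Il22 and its near-identical copy Iltifb, whose probes may share signal: they differed by 1.00 ± 0.28 (adjusted p = 0.14) and 1.11 ± 0.26 (adjusted p = 0.06) in Mst1KO S1_S2. The 6 genes around Xcl1 had no call in the WT step, with differences of -0.11 to 0.16.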

How the data were processed

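The authors deposited log2 values; the submitters' processing notes name RMA and Affymetrix Expression Console 1.1. NuGEN kits served for amplification and biotin labelling, per the labels' protocols. No genome build is given in the sources used here. Values (3.04 to 13.65, array medians 7.28 to 7.39) were used as deposited. Of 28846 items 6640 controls were left out. Of 22206 clusters 19572 carried 1 gene symbol.

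limma 3.58.1 in R 4.3.3 (lmFit, eBayes) was fitted to all 25 arrays with 6 group means and an additive term for the title number set, leaving 18 residual degrees of freedom. The Benjamini-Hochberg adjustment ran over all clusters of a comparison. The set, read from the jump in title numbering, passed for 1362 of 22206 clusters. It passed for 0 members, with limma adjusted p of 0.051 for Tnf and 0.055 for Il13. Replicate numbers follow accession order. On simulated data for 22206 clusters, a log2 change of 0.5 was called for 74% of changed clusters in the WT step, 40% in Mst1KO at S1_S2, 42% at S3 and 32% in dKOMst at S1_S2. A change of 1 was called for 98%, 90%, 94% and 80%. In dKOMst against Mst1KO the shares were 4% at 0.5 and 76% at 1, and for the difference of effects 26% and 88%. Noise was normal and independent between arrays, without a shift between sets, and 50 clusters were changed per size. The changed clusters were drawn at random from all clusters, so the shares are not those of the members. Member SEs in Mst1KO at S1_S2 ran from 0.11 (Il13) to 0.28 (Ifng), and a larger SE makes a call less likely.

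The members and gene lists were chosen with earlier results of these data known. Every member is named; of a list, the 3 called genes that changed most could be named in each comparison, or, without calls, the 2 of lowest p. The 7 interferon-induced GTPase genes and part of the plotted regulators were named after their values were seen. Also named outside that rule were Il21 in the WT step, Tbx21 and Stat4 in Mst1KO S1_S2, and Jun, Fos and Zfp36 in dKOMst S1_S2. Alternatives left out or recast the set term, kept only the groups compared, renormalized or centred the arrays, weighted arrays, filtered dim clusters, changed the variance model, kept 1 set, kept arrays with Y-linked signal (4 Mst1KO arrays lack it), fitted sex as a term and dropped single arrays in turn. Motifs were searched in Python 3.11.15.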

Additional observations from a re-analysis of the deposited data

Results flagged for a closer look

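Within groups of 4 to 7 arrays, 40 combinations of gene and group were examined for an array far from the rest, and 2 were found. Chance flags about 1 in 20 groups, so these 2 are no more than chance gives. Ifng in WT S3 replicate 4 read 10.48, against 9.18 to 9.68 in the other 6 arrays. Without that array the Mst1KO difference at S3 was 1.26 ± 0.25 (limma adjusted p = 0.0048) and the WT step 3.24 ± 0.21. Il2 in Mst1KO S1_S2 replicate 2 read 5.76, against 5.44 to 5.47 in the others, all of them below the negative control median.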

How the results depend on the processing

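Over 70 differences of the 10 genes, 1583 alternative values were computed: 1547 kept their direction and side of the threshold, 25 lost and 11 gained a call, and 0 reversed. Of 18 called differences 11 held under every alternative run. In Mst1KO at S1_S2 the 2 called members became 1 with only the groups compared, within the first set alone and with Y-linked-signal arrays alone, and 1 to 2 when an array was left out. In Mst1KO at S3 the 4 became 2 with Y-linked-signal arrays alone. In the Mst1KO step the 4 became 7 with only the groups compared. In dKOMst S1_S2 the 2 became 1 without the set term, with the set as a random block, with only the groups compared, after quantile normalization, after centring, with a sex term and with Y-linked-signal arrays alone, became 0 within the second set alone, and were 0 to 2 when an array was left out. Ifng, the 1 member past 1 log2 unit in the dKOMst S3 array, stayed past it against all 7 WT S3 arrays (1.06) and in the limma fit (1.17). That array has no replicate, so its differences have no check. The 5 genes above the control median on all arrays became 0 against the 95th percentile. Over all clusters the calls were 3760 in the WT step (1904 to 3884 over the alternatives), 116 (23 to 174) and 1415 (475 to 1656) in Mst1KO at S1_S2 and S3, 2266 (953 to 3107) in the Mst1KO step, 205 (33 to 343) in dKOMst, 38 (4 to 195) in dKOMst against Mst1KO and 35 (0 to 61) for the difference of effects. The share of higher calls was 58.6% in Mst1KO at S3, 44.3% after quantile normalization and 73% after centring, and 54.7%, 53.1% and 68.1% in the Mst1KO step, and 57.1%, 58.1% and 72.7% for the difference of effects. The cause was not tested. dKOMst against Mst1KO could not be fitted with only the groups compared, since set and genotype coincide. The labels carry no replicate numbers, but title numbers of S1_S2 and S3 arrays run a constant step apart within a set. Such inferred pairs matched in Y-linked signal, and their deviations from the group means correlated at -0.11 to 0.07 over 6 WT pairs and 0.06 to 0.17 over 4 Mst1KO pairs, too low to take the pairing as given. Fitting them as a replicate block, an alternative chosen after seeing the data, called 6 members in the WT step, 5 in the Mst1KO step (Ccl5 added, 0.62 ± 0.13, limma adjusted p = 0.0093) and 0 for the difference of effects. The number of arrays and levels near the negative controls (Il2, Csf2, Ccl4, Ccl5 and WT S1_S2 Ifng) limit the precision.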
